A study of Mus musculus with 4 samples.

Results

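The S100 genes encode small calcium-binding proteins of the EF-hand type, and 10 of them were followed here in cells labelled as mouse Kupffer cells: S100a1, S100a3, S100a4, S100a6, S100a8, S100a9, S100a10, S100a11, S100a13 and S100a16. They were taken by symbol from tables of 56004 gene rows per library, and for a symbol with several rows the row of highest mean was kept. All 10 were found, and 9 other S100 genes also had a row. The libraries were 4 in all, made from RNA extracted 48 h after exosomes, small vesicles released by cells, were added. In 2 libraries, called PRL-3 here, the exosomes came from MC38-PRL-3, a line of the mouse colon carcinoma MC38 named for the phosphatase PRL-3. In the other 2, called VT, they came from the control line MC38-VT, whose suffix the labels do not expand. Both groups therefore received tumour exosomes, and no library without exosomes was analysed here. The labels call the libraries of a group biological replicates without saying whether animals or cultures separate them, so the p-values measure only the spread between these libraries, which may be technical.

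S100 proteins mostly work as dimers that change shape when calcium binds and then dock onto partner proteins. Inside the cell the partners include annexins, nonmuscle myosin and other parts of the cytoskeleton. Some members are also released, and S100a8 and S100a9, which pair as calprotectin in neutrophils and monocytes, act on the receptors Tlr4 and RAGE, the product of Ager. Macrophages are known to carry several S100 transcripts, and the family sits largely in a cluster on mouse chromosome 3.

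The abundant S100 transcripts of these cells were S100a6, S100a4, S100a11, S100a10 and S100a8, and none of the 10 genes differed between PRL-3 and VT libraries past the test, a limma fit that called 0.0492% of all genes tested. S100a9, the calprotectin partner of S100a8, was close to 0 in every library. All 7 S100 genes with enough signal to test had a lower mean in PRL-3 libraries, and all 7 had their lowest value in PRL-3 replicate 1. Without that library, 5 of the 7 were lower. Over all genes tested the median log2 difference, PRL-3 minus VT, was 0.02. Of protein-coding genes with a mean of at least 20 FPKM, 41.7% were lowest in PRL-3 replicate 1. The share was 72.4% among those with a longest transcript over 500 and up to 800 nucleotides. It was 55.6% among those of up to 500 nucleotides, the class of S100a4 and S100a8. The untested S100a3, S100a9 and S100a16, all close to 0, had higher means in PRL-3 libraries. S100a4 had the widest range, with 356 FPKM in PRL-3 replicate 1 and between 807 and 961 FPKM in the other 3 libraries. FPKM is the number of fragments per kilobase of transcript for each 1e6 fragments, so that levels can be set side by side between genes, and the depth estimated from the lowest values was 16.8 to 18.3 in units of 1e6 fragments a library.

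All 10 genes lay on chromosome 3 of GRCm38, by the GENCODE M21 annotation. From S100a1 to S100a9 the main cluster spanned 184688 bases and held 8 of the 10 genes in the order S100a1, S100a13, S100a16, S100a3, S100a4, S100a6, S100a8 and S100a9. S100a11 and S100a10 followed after a gap of 2824766 bases. S100a4 (90603771 to 90606045) and S100a6 (90612882 to 90624181) were both on the plus strand. S100a8 (90668978 to 90670035, plus strand) and S100a9 (90692632 to 90695721, minus strand) pointed towards each other across 22596 bases. No source used here says that the counting kept strand, so reads of overlapping genes on opposite strands may not have been separated. Strand cannot separate overlapping genes on the same strand. S100a4 overlapped the gene model Gm42674 on the same strand, which was listed at 0.32 and 0 FPKM in PRL-3 libraries and at 0.37 and 0 FPKM in VT libraries. S100a3 overlapped S100a2 and Gm42674 on its own strand and Gm23464 on the other.

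The sequence before the start of 4 members is shown because the results turn on their levels: S100a4 had the widest range, its neighbour S100a6 was high in every library, and S100a8 was abundant where S100a9 was nearly absent. RefSeq promoters (GRCm38.p6) were matched by symbol for 9 of the 10 members, S100a10 having no entry in the table used. The 250 bases before each RefSeq start were searched on both strands for the TATA-box letters TATAAA, the C/EBP motif TTGCNNAA, the core motif GAGGAA of the myeloid factor PU.1, the AP-1 motif TGANTCA and the Sp1 motif GGGCGG, and matches are in capitals. For S100a8 and S100a6, the last 93 and 12 bases lie within the GENCODE transcript and are not printed.
S100a4, upstream stretch at chr3:90603520-90603769, + strand: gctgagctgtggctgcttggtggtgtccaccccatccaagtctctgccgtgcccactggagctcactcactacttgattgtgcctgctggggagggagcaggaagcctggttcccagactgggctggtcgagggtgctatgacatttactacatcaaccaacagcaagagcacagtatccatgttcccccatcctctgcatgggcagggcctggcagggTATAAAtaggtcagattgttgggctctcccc
S100a6, upstream stretch at chr3:90612644-90612881, + strand: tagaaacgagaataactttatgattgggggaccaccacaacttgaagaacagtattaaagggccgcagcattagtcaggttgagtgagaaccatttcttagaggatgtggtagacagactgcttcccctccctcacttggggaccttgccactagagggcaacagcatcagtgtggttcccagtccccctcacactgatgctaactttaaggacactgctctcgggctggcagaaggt
S100a8, upstream stretch at chr3:90668821-90668977, + strand: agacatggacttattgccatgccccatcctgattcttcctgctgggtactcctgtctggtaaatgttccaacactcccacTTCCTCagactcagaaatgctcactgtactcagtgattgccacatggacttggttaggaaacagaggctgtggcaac
S100a9, upstream stretch at chr3:90695722-90695971, - strand: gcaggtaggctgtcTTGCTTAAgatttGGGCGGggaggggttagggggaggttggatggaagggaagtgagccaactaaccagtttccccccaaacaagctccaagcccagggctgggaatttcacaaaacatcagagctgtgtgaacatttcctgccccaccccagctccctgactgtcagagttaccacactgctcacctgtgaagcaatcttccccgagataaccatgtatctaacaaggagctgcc
S100a4 held a TATA box beginning 31 bases before its start, and S100a6 held none of the motifs. S100a8 held GAGGAA at 170 bases and again, in the stretch not printed, at 36 bases before the start, next to a TATA box at 30 bases. S100a9 held a C/EBP match at 236 bases and an Sp1 match at 223 bases before its start. Over all 32851 promoters of the same length, 12.4% held TATAAA, 9.56% TTGCNNAA, 23.3% GAGGAA, 6.75% TGANTCA and 32.7% GGGCGG. A match describes letters and is not a measured site.

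S100a4, also known as fibroblast-specific protein or metastasin, binds nonmuscle myosin and is used as a marker of fibroblasts and of motile tumour cells. It was listed at 356 and 807 FPKM in PRL-3 libraries and at 961 and 934 FPKM in VT libraries. Both PRL-3 values were below both VT values, but they were far apart, with replicate 1 well under replicate 2, while the VT libraries were close together. The mean was 581 ± 319 FPKM in PRL-3 libraries and 948 ± 18.9 FPKM in VT libraries (SD, n = 2 each). On the log2(FPKM + 1) scale used for all differences, PRL-3 minus VT was -0.82 (SE 0.41, 95% interval -1.94 to 0.30), with a limma adjusted p of 0.608. Without PRL-3 replicate 2 the difference was -1.41, and without PRL-3 replicate 1 it was -0.23. Each of these fits holds a single PRL-3 library, so the spread within PRL-3 is unknown there. The size of the S100a4 difference thus depended on which PRL-3 library was kept.

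S100a6, or calcyclin, a cytoplasmic member that binds the calcyclin-binding protein Cacybp, lies next but one to S100a4 in the cluster. Its levels were 744.5 and 783 FPKM in PRL-3 libraries and 855 and 836 FPKM in VT libraries. The groups did not overlap, and the libraries of each group were close. The difference was -0.15 (SE 0.11, 95% interval -0.41 to 0.12), with a limma adjusted p of 0.698. The ratio of S100a4 to S100a6 within a library was 0.478 and 1.03 in PRL-3 replicates 1 and 2, against 1.12 and 1.12 in VT libraries. S100a4 was therefore the highest of the 10 genes in 3 libraries and ranked 4 in PRL-3 replicate 1, below S100a6, S100a11 and S100a10.

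**Figure D1:**
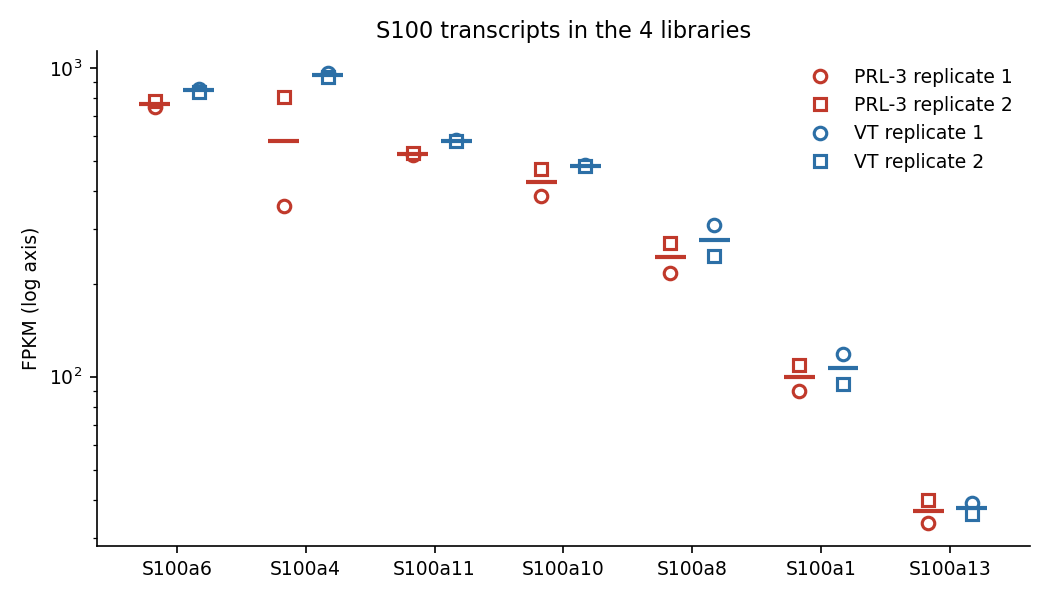
Levels of the 7 tested S100 genes in FPKM on a log axis, by gene from high to low mean, with PRL-3 libraries left of VT libraries. Circles are replicate 1, squares replicate 2 and bars the means of 2 libraries. S100a4 stands at 356 FPKM in PRL-3 replicate 1 and at 807 to 961 FPKM in the other libraries.

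S100a10 and S100a11 are the annexin partners. S100a10, or p11, binds annexin A2 without needing calcium and helps to place plasminogen at the cell surface. It was listed at 384 and 470 FPKM in PRL-3 libraries and at 486 and 480 FPKM in VT libraries. Replicate 1 of PRL-3 was the low library, and PRL-3 replicate 2 lay just under the VT pair. The difference was -0.18 (SE 0.13, 95% interval -0.51 to 0.14), with a limma adjusted p of 0.692. It was -0.04 without PRL-3 replicate 1 and -0.33 without PRL-3 replicate 2. Anxa2 itself was at 549 and 470 FPKM in PRL-3 libraries and at 529 and 521 FPKM in VT libraries, with overlapping groups. S100a10 per Anxa2 was 0.701 and 0.999 in PRL-3 replicates 1 and 2, against 0.919 and 0.921 in VT libraries, so the VT ratios fell between the PRL-3 ones.

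S100a11, or calgizzarin, binds annexin A1 and takes part in membrane repair and in keratinocyte growth control. Its levels were 524 and 530 FPKM in PRL-3 libraries and 586 and 578 FPKM in VT libraries. This was the tightest pair of groups in the family, without overlap, at means of 527 ± 3.95 FPKM in PRL-3 libraries and 582 ± 5.44 FPKM in VT libraries (SD, n = 2 each). The difference was -0.14 (SE 0.10, 95% interval -0.40 to 0.11), with a limma adjusted p of 0.693. Anxa1 was at 177 and 190 FPKM in PRL-3 libraries and at 197 and 195 FPKM in VT libraries. S100a11 per Anxa1 was 2.95 and 2.79 in PRL-3 libraries and 2.97 and 2.97 in VT libraries. Among the 9 tested annexins, 0 were called by limma (0 at an unadjusted p under 0.05), the median difference was -0.05, and 2 of 9 lay below and 1 of 9 above VT without overlap, where 18% and 24.3% of all genes tested did. The most abundant annexin was Anxa5, a phosphatidylserine binder, at 1017 and 951 FPKM in PRL-3 libraries and at 1009 and 912 FPKM in VT libraries.

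S100a8 and S100a9 are the calprotectin subunits, stored in bulk by neutrophils and released at sites of inflammation. S100a8 was at 216 and 271 FPKM in PRL-3 libraries and at 309 and 247 FPKM in VT libraries. The groups overlapped, since PRL-3 replicate 2 was above VT replicate 2. The difference was -0.19 (SE 0.16, 95% interval -0.59 to 0.21), with a limma adjusted p of 0.751. It was -0.03 without PRL-3 replicate 1 or without VT replicate 1, and -0.35 without PRL-3 replicate 2 or without VT replicate 2. S100a9 was listed at 0.40 and 0 FPKM in PRL-3 libraries and at 0 and 0 FPKM in VT libraries. At the estimated depth of the libraries, S100a8 rested on about 1049 and 1400 fragments in PRL-3 libraries and on about 1580 and 1169 in VT libraries, and the only S100a9 value above 0 on about 2 fragments. The calprotectin subunits were thus at unlike levels in all 4 libraries, and S100a9 was too low to test.

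The markers of neutrophils, the cells best known for both subunits, were low. Of 15 listed neutrophil markers, 8 were listed at 0 in every library (Ly6g, Elane, Mpo, Prtn3, Camp, Mmp8, Retnlg and Chil3), and 2 passed the filter on low values. These were Lcn2, an iron-carrier binding protein that macrophages also make, and Csf3r, the receptor for granulocyte colony-stimulating factor. Lcn2 was at 356 and 140 FPKM in PRL-3 libraries and at 117 and 73.5 FPKM in VT libraries, with no overlap and a limma adjusted p of 0.604. Csf3r was at 8.58 and 5.57 FPKM in PRL-3 libraries and at 6.18 and 5.30 FPKM in VT libraries, with overlap. The summed level of the list was 366 and 147 FPKM in PRL-3 libraries and 124 and 79.7 FPKM in VT libraries, nearly all of it Lcn2. S100a8 did not follow Lcn2, being lowest in the library where Lcn2 was highest.

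Of 12 genes listed as receptors for secreted S100 proteins, 9 passed the filter, and Ager, Emb and Mcam did not. Ager was at 0.57 and 0.55 FPKM in PRL-3 libraries and at 0.42 and 0.25 FPKM in VT libraries, and Emb and Mcam stayed at 0.23 FPKM or less in every library. Tlr4 was at 25.4 and 31.5 FPKM in PRL-3 libraries and at 30.3 and 31.1 FPKM in VT libraries. Cd14, the coreceptor of Tlr4, was at 884 and 1048 FPKM in PRL-3 libraries and at 1152 and 1206 FPKM in VT libraries, without overlap. Cd36, a scavenger receptor that binds calprotectin with fatty acids, was at 520 and 608 FPKM in PRL-3 libraries and at 608 and 645 FPKM in VT libraries. Tlr4, Cd14 and Cd36 were among the 6 of 9 tested receptor genes with their lowest value in PRL-3 replicate 1. Of protein-coding genes with a mean of at least 20 FPKM, 41.7% were lowest in that library. Ly96, the partner of Tlr4 in binding lipopolysaccharide, was at 29.6 and 25.6 FPKM in PRL-3 libraries and at 27.6 and 28.9 FPKM in VT libraries, with its highest value in PRL-3 replicate 1. Cd33, a sialic acid-binding lectin, was at 20.7 and 29.4 FPKM in PRL-3 libraries and at 17.9 and 17.2 FPKM in VT libraries, above VT without overlap, with a difference of 0.47 and a limma adjusted p of 0.510. Cd33 was the 1 receptor gene at an unadjusted p under 0.05, and limma called 0 of the 9, with a median difference of -0.04. Cd14 alone lay below VT without overlap and Cd33 alone above, or 1 of 9 each way, where 18% and 24.3% of all genes tested did.

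S100a1 and S100a13 were lower and less separated. S100a1, a member best known from heart muscle, where it tunes calcium cycling, was at 89.9 and 109 FPKM in PRL-3 libraries and at 118 and 94.7 FPKM in VT libraries. The spread within each group was larger than the gap between the groups, and the difference was -0.09 (SE 0.15, 95% interval -0.47 to 0.28), with a limma adjusted p of 0.871. S100a13, which binds Fgf1 and helps to export it, was at 33.6 and 39.8 FPKM in PRL-3 libraries and at 39.1 and 35.8 FPKM in VT libraries. These groups also overlapped, with a difference of -0.03 (SE 0.12) and a limma adjusted p of 0.951. The differences of S100a1 and S100a13 turned positive when PRL-3 replicate 1 was left out, at 0.05 and 0.09, and when VT replicate 1 was left out, at 0.06 and 0.03. Fgf1 was below the filter in every library.

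S100a3, S100a9 and S100a16 did not reach 1 FPKM in any library and were not tested. S100a3, a protein of the hair cuticle, was at 0.39 and 0.39 FPKM in PRL-3 libraries and at 0.38 and 0.19 FPKM in VT libraries. S100a16, a widely expressed member, was at 0.30 and 0.06 FPKM in PRL-3 libraries and was listed at 0 in both VT libraries. At the estimated depth these S100a16 values are about 4.6 and 1 fragments. Among the other S100 genes, S100a2 was at 0.03 and 0.04 FPKM in PRL-3 libraries and at 0.67 and 0.24 FPKM in VT libraries. S100a14 was at 0.26 and 0.20 FPKM in PRL-3 libraries and was listed at 0 in VT libraries. S100b, the glial member, was at 0.09 and 0.13 FPKM in PRL-3 libraries and at 0.17 and 0.17 FPKM in VT libraries. S100a5 and S100a7a had a value above 0 in 1 PRL-3 library each, at 0.28 and 0.06 FPKM.

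Side by side, the levels fell into an order that held in 3 of the 4 libraries: S100a4, S100a6, S100a11, S100a10, S100a8, S100a1 and S100a13. Ranked by mean level over 52324 gene symbols, S100a6 stood at 129, S100a4 at 136, S100a11 at 183, S100a10 at 217, S100a8 at 372, S100a1 at 991 and S100a13 at 2863. The 10 genes summed to 2350 and 3009 FPKM in PRL-3 libraries and to 3354 and 3206 FPKM in VT libraries, or 0.348% and 0.415% of the FPKM sum in PRL-3 libraries and 0.469% and 0.454% in VT libraries. The sums did not overlap, and their means were 2680 ± 467 FPKM in PRL-3 libraries and 3280 ± 105 FPKM in VT libraries (SD, n = 2 each), and on the log2 scale PRL-3 minus VT was -0.29. That difference was -0.12 without PRL-3 replicate 1 and -0.48 without PRL-3 replicate 2. S100a4 made up 15.1% and 26.8% of the sum in PRL-3 libraries and 28.7% and 29.1% in VT libraries. Without S100a4 the log2 difference of the sums was -0.15. In bulk RNA, fewer cells carrying these transcripts and less of them per cell cannot be told apart.

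Across the 12193 genes tested, limma called 6, or 0.0492%, 3 higher and 3 lower, with 1159 at an unadjusted p under 0.05. Of the 7 tested S100 genes, limma called 0, with 0 at an unadjusted p under 0.05. In 4 of the 7 (S100a4, S100a6, S100a10 and S100a11) both PRL-3 libraries were below both VT libraries, where 18% of all genes tested had that order. The reverse order, with PRL-3 libraries higher throughout, was seen in 0 of the 7 and in 24.3% of all genes tested. The median difference was -0.15 for the 7 genes and 0.02 for all genes tested. Without PRL-3 replicate 1 these medians were -0.04 and 0.04. Dropping PRL-3 replicate 2 instead gave -0.23 for the S100 genes and 0.00105 for all genes. With 2 libraries a group, the intervals of the 7 genes all included 0, which does not show that the levels were alike.

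**Figure D2:**
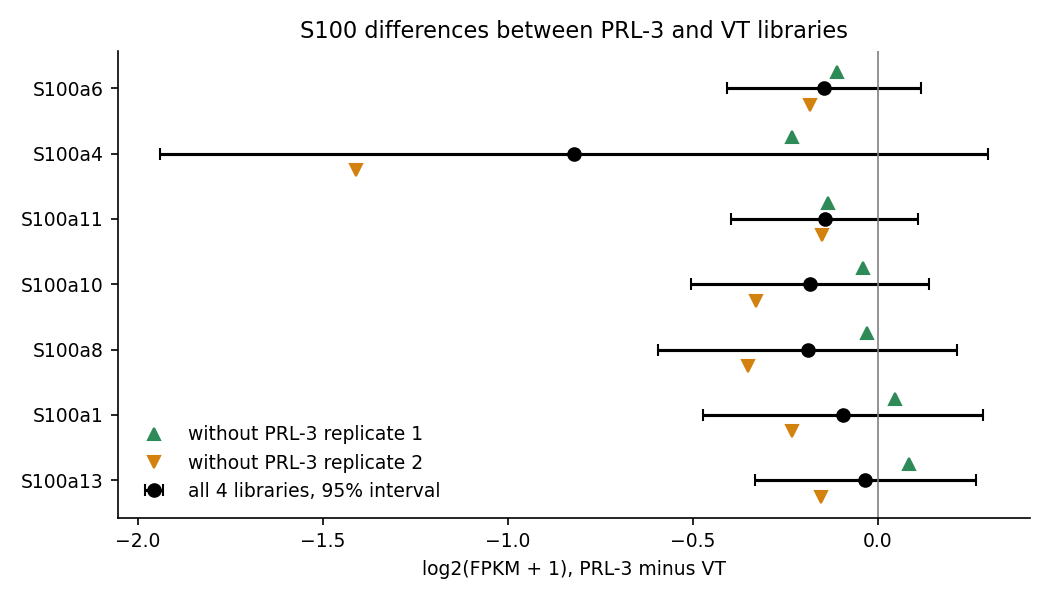
Difference PRL-3 minus VT in log2(FPKM + 1) for the 7 tested S100 genes. Black points are the fit to all 4 libraries with 95% intervals, upward triangles leave out PRL-3 replicate 1 and downward triangles PRL-3 replicate 2. All 7 intervals cross 0, and S100a4 moves between -0.23 and -1.41 with the PRL-3 library kept.

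Beyond the S100 genes, PRL-3 replicate 1 was the library least like the rest. The SD of the log2 ratio between 2 libraries over the tested genes was 0.402 to 0.412 for the 3 pairs with PRL-3 replicate 1 and 0.313 to 0.366 for the 3 pairs without it. The gap between PRL-3 replicates 1 and 2 was -1.18 for S100a4 on the log2 scale, against 0.04 between VT replicates 1 and 2. Of 1044 genes with a mean of at least 100 FPKM, 5 had replicate 1 below replicate 2 by as much or more: S100a4, Ank, Gm43558, Gm8325 and Gm14303. The median size of that gap over the 1044 genes was 0.18. S100a4 therefore varied more between the PRL-3 libraries than nearly all genes of its abundance.

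Short transcripts were more often lowest in PRL-3 replicate 1 than protein-coding genes at large. The longest annotated transcripts of the 7 tested S100 genes had 498 to 783 nucleotides. Among 134 protein-coding genes with a mean of at least 20 FPKM and a longest transcript over 500 and up to 800 nucleotides, the median gap between PRL-3 replicates 1 and 2 was -0.26, and 72.4% were lowest in PRL-3 replicate 1. Over all 4551 protein-coding genes of that abundance the median gap was -0.05, and 41.7% were lowest there. S100a4 and S100a8, at 498 nucleotides each, fell in the class of up to 500, which held only 18 genes, with a median gap of -0.23 and 55.6% lowest in PRL-3 replicate 1. Among the 5 tested S100 genes over 500 nucleotides, the gaps of S100a10 (-0.29), S100a1 (-0.28) and S100a13 (-0.24) were near the median of their class, and those of S100a6 (-0.07) and S100a11 (-0.02) were smaller. In the shortest class, the gap of S100a8 was -0.32 and that of S100a4 was -1.18. The median PRL-3 minus VT difference was -0.05 in the class of up to 500 nucleotides and -0.07 in the next. The part of transcript length in the S100 values was not tested.

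**Figure D3:**
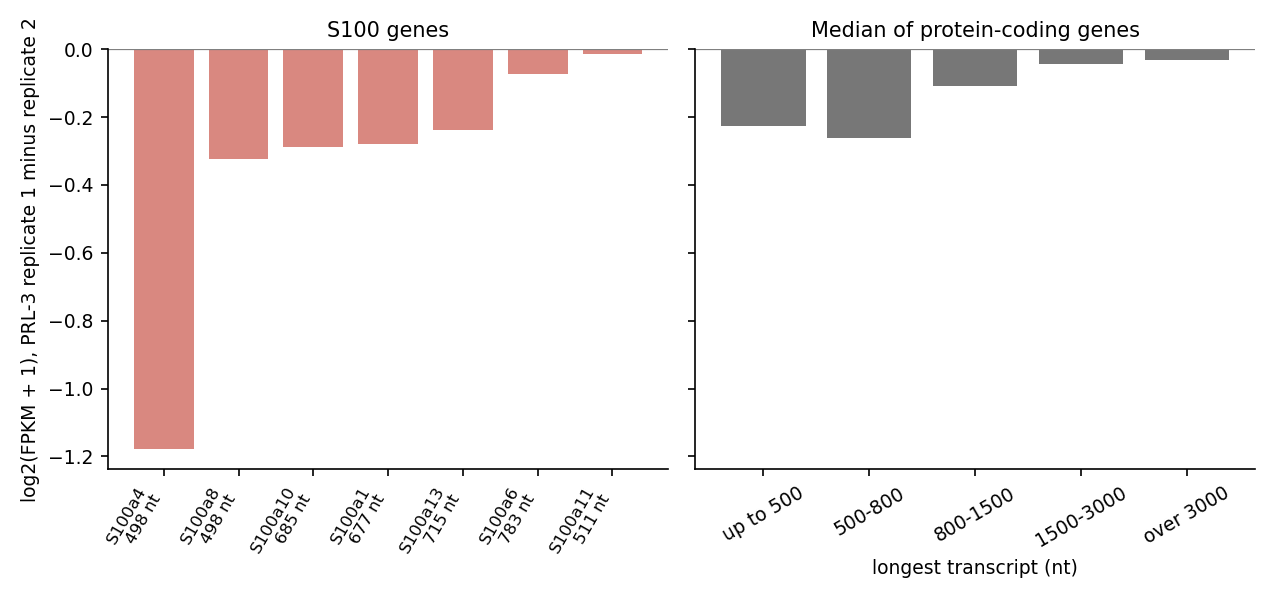
Difference between PRL-3 replicate 1 and replicate 2 in log2(FPKM + 1), for the 7 tested S100 genes with the length of their longest transcript (left) and as the median of protein-coding genes with a mean of at least 20 FPKM by length class (right). The class of up to 500 nucleotides has a median of -0.23 and the next, up to 800, of -0.26, and S100a4 lies at -1.18.

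The pattern of S100a4 over the 4 libraries was set beside that of 4869 other genes with a mean of at least 20 FPKM, by the distance between their centred log2(FPKM + 1) values. The nearest was an assembled transcript without a gene name, at 54.97 and 121 FPKM in PRL-3 libraries and at 122 and 115 FPKM in VT libraries. Idi1, an isomerase of the cholesterol pathway, was next, at 15.1 and 25.5 FPKM in PRL-3 libraries and at 33.4 and 35.6 FPKM in VT libraries. Mcm6, a subunit of the replicative helicase, followed, at 22.6 and 40.4 FPKM in PRL-3 libraries and at 43.9 and 56.6 FPKM in VT libraries. Plau, the urokinase protease, and Pclaf, a PCNA-binding protein of replicating cells, completed the 5. Plau was at 14.6 and 24.2 FPKM in PRL-3 libraries and at 36.5 and 40.8 FPKM in VT libraries, and Pclaf was at 28.4 and 45.4 FPKM in PRL-3 libraries and at 68.1 and 74.4 FPKM in VT libraries. All 5 were lowest in PRL-3 replicate 1, which follows from their choice by nearness to S100a4 and is no result about them. Of the 5, limma called 0, with adjusted p-values of 0.445 to 0.720. These come from the values by which the 5 were chosen and are likewise no result about them.

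**Figure D4:**
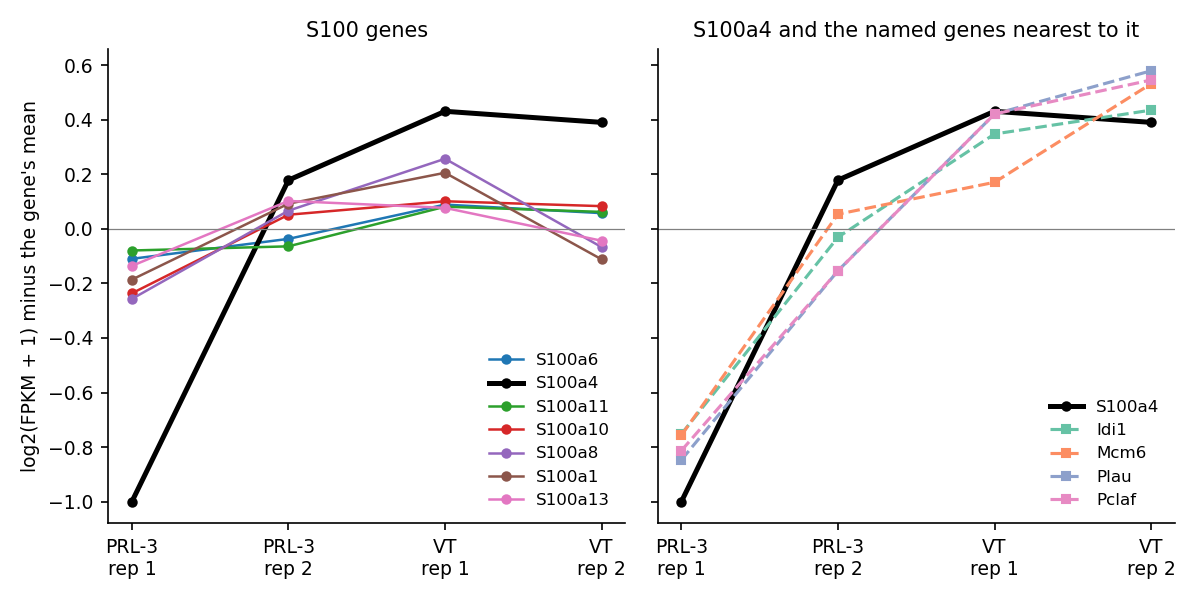
Values of log2(FPKM + 1) minus the gene's mean over the 4 libraries, for the 7 tested S100 genes (left) and for S100a4 with the 4 named genes of nearest pattern (right). Lines join the values of a gene and stand for no order in time. All genes drawn are lowest in PRL-3 replicate 1, which on the right follows from the choice of genes, and S100a4 spans 1.43 log2 units.

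Neighbouring S100 genes stood at widely different levels. Within the main cluster, S100a4, S100a6 and S100a8 were at 216 FPKM or more in every library while S100a3, S100a5, S100a7a and S100a9 between or beside them were below 1 FPKM. The nearest tested protein-coding genes that are no S100 genes were Ilf2, Snapin and Chtop on the side of S100a1, and Them4, Tdrkh and Mrpl9 beyond S100a10. Of these 6, 2 were below VT in both PRL-3 libraries (Ilf2 and Tdrkh), 3 were above (Snapin, Chtop and Them4) and 1 overlapped. Over all genes tested, 18% were below and 24.3% above in this way. Them4, a thioesterase, was at 36.6 and 24.4 FPKM in PRL-3 libraries and at 18.8 and 16.1 FPKM in VT libraries, with a limma adjusted p of 0.468.

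**Figure D5:**
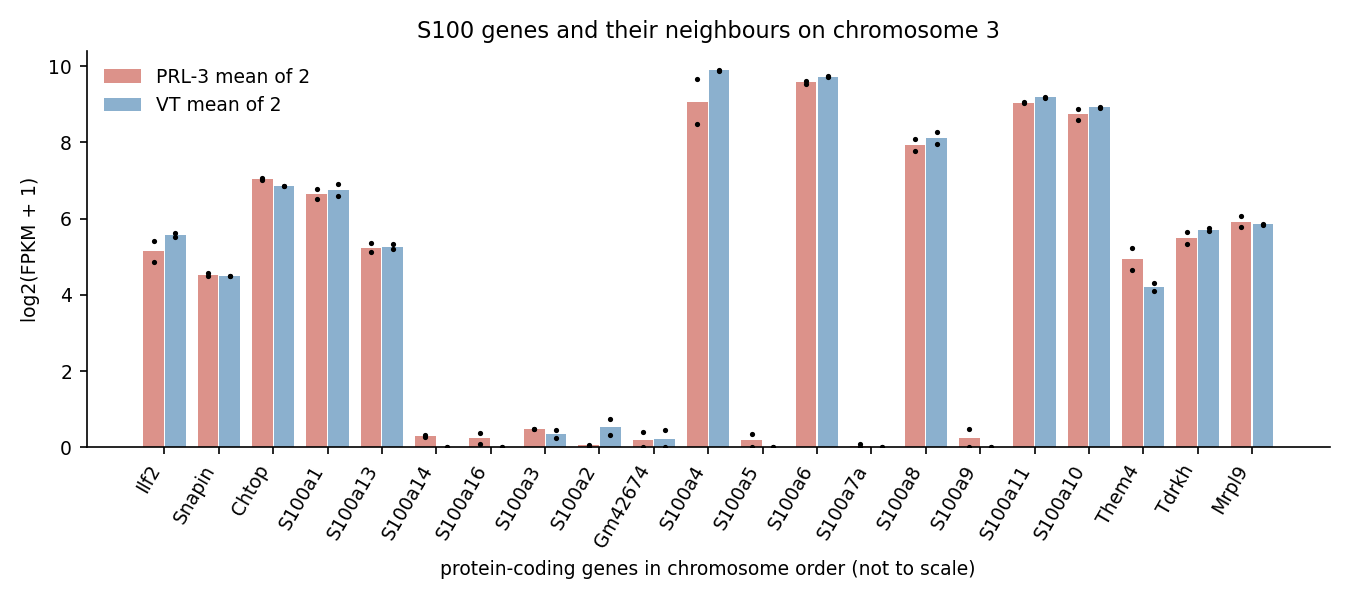
Mean log2(FPKM + 1) of the S100 genes and of the nearest tested genes outside them, in chromosome order and not to scale, with PRL-3 bars left of VT bars and dots for the 2 libraries of each mean. S100a4, S100a6 and S100a8 stand high between genes near 0.

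No gene for an intracellular partner passed the test. Among 15 tested genes for intracellular partners, limma called 0 (0 at an unadjusted p under 0.05), with a median difference of -0.0039. Both PRL-3 libraries were below VT in 3 of the 15 and above in 1, where 18% and 24.3% of all genes tested had these orders. Tpm3, a tropomyosin, was at 321 and 362 FPKM in PRL-3 libraries and at 401 and 396 FPKM in VT libraries, without overlap. Sri, or sorcin, the 1 member above VT without overlap, was at 141 and 148 FPKM in PRL-3 libraries and at 137 and 120 FPKM in VT libraries. Cacybp, the partner of S100a6, was at 45.7 and 59.9 FPKM in PRL-3 libraries and at 60.5 and 60.3 FPKM in VT libraries. Myh9, the nonmuscle myosin bound by S100a4, was at 108 and 106 FPKM in PRL-3 libraries and at 103 and 107 FPKM in VT libraries, with overlap. Unlike S100a4, Myh9 was level across the 4 libraries.

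Other genes of the EF-hand class gave a background for the calcium-binding family. Of 24 tested, limma called 0 (3 at an unadjusted p under 0.05), with a median difference of -0.12. Both PRL-3 libraries were below VT in 12 of the 24 and above in 1, where 18% and 24.3% of all genes tested had these orders. The 1 above was Sri, which was also on the list of intracellular partners. Actn4, an actin crosslinker, was at 95.3 and 99.97 FPKM in PRL-3 libraries and at 131.5 and 131 FPKM in VT libraries. Efhd2 was at 136 and 125 FPKM in PRL-3 libraries and at 144 and 158 FPKM in VT libraries. Lcp1, the actin bundler of leukocytes, was at 801 and 713 FPKM in PRL-3 libraries and at 717 and 708 FPKM in VT libraries, with overlap. Here 10 of 24 were lowest in PRL-3 replicate 1, against 7 of 7 for the S100 genes, but the lists were not matched for transcript length. Of protein-coding genes with a mean of at least 20 FPKM, 41.7% were lowest there. In the length classes of the S100 genes the shares were 55.6% (up to 500 nucleotides) and 72.4% (over 500 and up to 800).

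The labelled cell type was checked against marker lists. Of 12 macrophage markers, 11 passed the filter, 4 of them below VT in both PRL-3 libraries and 0 above (18% and 24.3% of all genes tested), and the list summed to 9634 and 9549 FPKM in PRL-3 libraries and to 10711 and 10721 FPKM in VT libraries. Cd14, which was also on the receptor list, was among the 4 below VT. Lyz2, the macrophage lysozyme, was at 5916 and 5988 FPKM in PRL-3 libraries and at 6822 and 6831 FPKM in VT libraries. Of 15 Kupffer cell markers, 6 were listed at 0 in every library, among them the defining Clec4f, Timd4 and Vsig4, and 5 passed the filter. Hmox1 was at 266 and 181 FPKM in PRL-3 libraries and at 233 and 187 FPKM in VT libraries. Id3, Nr1h3 and Slc40a1 ranged over 14.7 to 17.1, 4.68 to 6.85 and 1.09 to 2.94 FPKM. Cd5l was at 2.36 and 1.05 FPKM in PRL-3 libraries and at 3.52 and 3.51 FPKM in VT libraries. It alone of the 5 did not overlap (18% of all genes tested were below). Macrophage transcripts were thus abundant, while most of the listed Kupffer cell markers were absent or nearly so. Those that did not pass the filter stayed at 0.38 FPKM or less in every library. Fibroblast and stellate markers, listed because S100a4 is also a fibroblast marker, summed to 16.5 and 14.3 FPKM in PRL-3 libraries and to 7.86 and 7.08 FPKM in VT libraries, opposite in direction to S100a4. Of 15 listed, 4 passed the filter (3 at an unadjusted p under 0.05, 0 called by limma). Those 3, Acta2, Tagln and Sparc, were below 1 FPKM in both VT libraries and passed only through the PRL-3 libraries. Their place above VT was thus fixed by the filter and is no result about them. Dcn, which passed in every library, was at 6.63 and 4.32 FPKM in PRL-3 libraries and at 5.44 and 4.65 FPKM in VT libraries. Col3a1 was at 0.34 and 0.86 FPKM in PRL-3 libraries and listed at 0 in VT libraries. No epithelial, dendritic, lymphoid, hepatocyte or endothelial marker on the lists passed the filter, the highest single value being 0.89 FPKM. The part of these markers in the S100 values was not tested.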

How the data were processed

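The deposited tables give no unit, and their values were read as FPKM because the columns sum to different totals, are not whole and step with transcript length. The submitters' processing notes name RSEM, DESeq2 and mm10, with no role. The aligner is not given in the sources used here, nor is the annotation. FPKM divides by transcript length, so values of short transcripts such as those of S100 genes depend on the fragment length assumed. Depth was estimated by fitting the number of fragments and their length so that low FPKM of transcripts of 600 to 2000 nucleotides became whole fragments, and 91.0% to 93.4% did within 0.2 fragments, so fragment numbers are approximate. Fragment numbers and length classes used the longest annotated transcript. The rows of S100a6, S100a8, S100a11 and S100a13 carry identifiers of assembled transcripts, so the length behind their deposited values is not known.

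Genes with at least 1 FPKM in at least 2 libraries (12193, 7 of the 10 S100 genes) were compared on log2(FPKM + 1), which understates changes of low genes, with limma 3.58.1 in R 4.3.3 (trend, robust, no replicate block). P-values were adjusted by Benjamini-Hochberg over all genes tested, with a threshold of 0.05. Alternatives were the pseudocount, filter, scaling, moderation, replicate block, summed rows and leaving out each library.

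The members and lists were chosen with earlier results of these data known. The rule for naming took the 10 members, other S100 genes above 0, up to 5 genes of highest mean and any called gene per list, the 5 genes nearest to the member of widest range, and chromosomal neighbours. Genes named outside it (such as Tlr4, Ager, Cacybp, Myh9, Anxa1, Actn4, Col3a1 and the genes with the widest replicate gap) were chosen as known partners or examples after their values were seen.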

Additional observations from a re-analysis of the deposited data

How the results depend on the processing

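The number of S100 genes called was 0 under every alternative that kept all libraries. A fit that leaves out a library holds a single library in that group, so only differences of S100 genes are read from it. Over all genes, where 6 were called, the count was 1 with a pseudocount of 0.1, 0 with no filter on low values, 1 with a mean of at least 5 FPKM and 2 without trend and robust moderation. Leaving out libraries gave 0 to 100 calls. Dropping PRL-3 replicate 2 gave the 100, dropping PRL-3 replicate 1 gave 2, and dropping VT replicate 1 or VT replicate 2 gave 0, where a lone library was assumed to vary like the other group. With the replicate block there were 15 calls over all genes and 0 among S100 genes. Same-numbered libraries did not deviate together (correlation -0.06), so the numbers were not treated as pairs.

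The log2 difference of the summed S100 level ranged from -0.48 (without PRL-3 replicate 2) to -0.12 when libraries were left out. For S100a1 the difference ranged from -0.25 to 0.06, turning positive without PRL-3 replicate 1 (0.05) or VT replicate 1 (0.065). For S100a13 it ranged from -0.15 to 0.09, turning positive without PRL-3 replicate 1 (0.086) or VT replicate 1 (0.03). Among the values of single S100 genes under all alternatives, 79 were rated the same, 4 changed sign and 1 was rated stronger. A value rated the same could still move far toward 0. Without PRL-3 replicate 1, S100a4 went from -0.82 to -0.23 and S100a10 from -0.18 to -0.04, and both were rated the same. The stronger value was S100a4 without PRL-3 replicate 2. The median difference of the family stayed between -0.23 and -0.04. The causes were not tested. With 2 libraries a group, only large and even differences could pass, and the values of S100a9 and S100a16 rest on too few fragments to show a difference at this depth.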
